A study of Mus musculus with 5 samples.

Results

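Translation initiation and elongation factors were examined in CXCL12-abundant reticular (CAR) cells, stromal cells of the bone marrow that were sorted as Cxcl12-GFPhigh tdTomato+ cells from mouse femurs at postnatal day 21 (P21). Members were the protein-coding genes whose mouse symbol starts with Eif or Eef followed by a digit, and *Eif2ak2*, *Eif2s3x* and *Eif2s3y* were left out by this rule. This gave 64 genes of the 17087 protein-coding genes and of the 30046 features in the counts. Bulk RNA-seq counts were compared between Dlx5CE-E12.5 cells, 3 libraries from mice of genotype Cxcl12(GFP/+), Dlx5(CreER/+), R26R(tdTomato/+), and Fgfr3CE-E12.5 cells, 2 libraries from mice carrying Cxcl12(GFP/+), Fgfr3-iCreER and R26R(tdTomato/+). Tamoxifen was given to all of them once, at E12.5 (embryonic day), so that tdTomato marked the descendants of cells in which the Dlx5 or the Fgfr3 driver was active at that time. Every library therefore came from mice with GFP at a Cxcl12 allele, and littermates were pooled by genotype. The study's methods state that the Dlx5CE-E12.5 libraries were read as long paired-end reads on a NovaSeq and the Fgfr3CE-E12.5 libraries as short single-end reads on a HiSeq, whereas the sample labels name the HiSeq throughout. With the methods' description, read length and sequencer cannot be told apart from the lineage.

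Initiation factors assemble the ribosome on the mRNA. The eIF2 complex brings the initiator tRNA, eIF4F binds the cap and unwinds the leader, and eIF3 holds the small ribosomal subunit, while eIF2B recharges eIF2 with GTP and eIF2 kinases block that step under stress. Elongation factors then deliver each aminoacyl-tRNA (eEF1) and move the ribosome along by a codon (eEF2). Several of these mRNAs carry a 5′ terminal oligopyrimidine (TOP) tract, a run of C and T that starts at the first transcribed base and places the mRNA under the control of mTORC1, a kinase complex that senses nutrients.

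Total counts were 22035650 to 32563758 in the Dlx5CE-E12.5 libraries and 56355203 to 58166285 in the Fgfr3CE-E12.5 libraries, and the 64 members held 0.979% to 1.05% of the counts of each library. Marker genes of other cells moved with the lineage in part, as the erythroid and endothelial sums overlapped between the lineages. The summed level of 21 leukocyte markers was 1931 to 2649 CPM (counts scaled to the library total and by TMM) in Dlx5CE-E12.5 cells and 5807 and 12412 CPM in Fgfr3CE-E12.5 replicates 2 and 3, with 18 of 21 called higher and none at 0. The sum of 12 proliferation markers was 269 to 467 CPM against 903 and 1059 CPM, with 9 called higher. The 10 CAR and stromal markers, of which *Cxcl12* drove the GFP used in the sort, summed to 32941 to 34843 CPM against 13338 and 8758 CPM, with 7 called lower and 1 higher. Chondrocyte markers summed to 125 to 133 CPM against 3078 and 416 CPM. Of these, *Col2a1* alone had 2598 and 343 CPM in Fgfr3CE-E12.5 replicates 2 and 3, and *Col9a1* had no count in any Dlx5CE-E12.5 library. *Sox9* went the other way, at 124, 117 and 122 CPM in Dlx5CE-E12.5 cells against 96.8 and 53.7 CPM. Erythroid markers summed to 17834 to 36334 CPM against 13916 and 20712 CPM, and endothelial markers to 31.9 to 52.2 CPM against 38.9 and 53.4 CPM. The part of these cells in the results was not tested, and in bulk samples fewer cells of a type and less RNA per cell cannot be told apart.

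As a family the factors were called at shares near or below those of all genes, while a few members differed by a large factor. Of the 64 members, 59 passed the filter, which asked for 10 CPM in 2 or more libraries. For the filter, CPM was scaled to the library total alone, without TMM. By that measure 58 members reached the level in all 5 libraries. A gene was called where its log2 fold change exceeded 1 in size and its p-value, from the quasi-likelihood test of edgeR and adjusted by Benjamini-Hochberg over 10088 genes, was below 0.05. So called, 6 members were higher in Fgfr3CE-E12.5 cells and 7 were lower. These are 10.2% and 11.9% of the members tested (13 of 59 together), where 16.4% and 13.1% of all genes tested were called higher and lower (29.5% together). By the adjusted p-value alone, 12 members (20.3%) were higher and 14 (23.7%) were lower, against 25.0% and 23.4% of all genes. The libraries of the lineages did not overlap for 40 of 59 members (67.8%), against 68.9% of all genes. The median log2 fold change, Fgfr3CE-E12.5 over Dlx5CE-E12.5 throughout, was -0.01 over the members and 0.01 over all genes tested, and 34 of 59 members lay within 0.5 of 0. With library size as the only scaling the median of all genes moved to 0.22, and that of the members to 0.19.

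**Figure D1:**
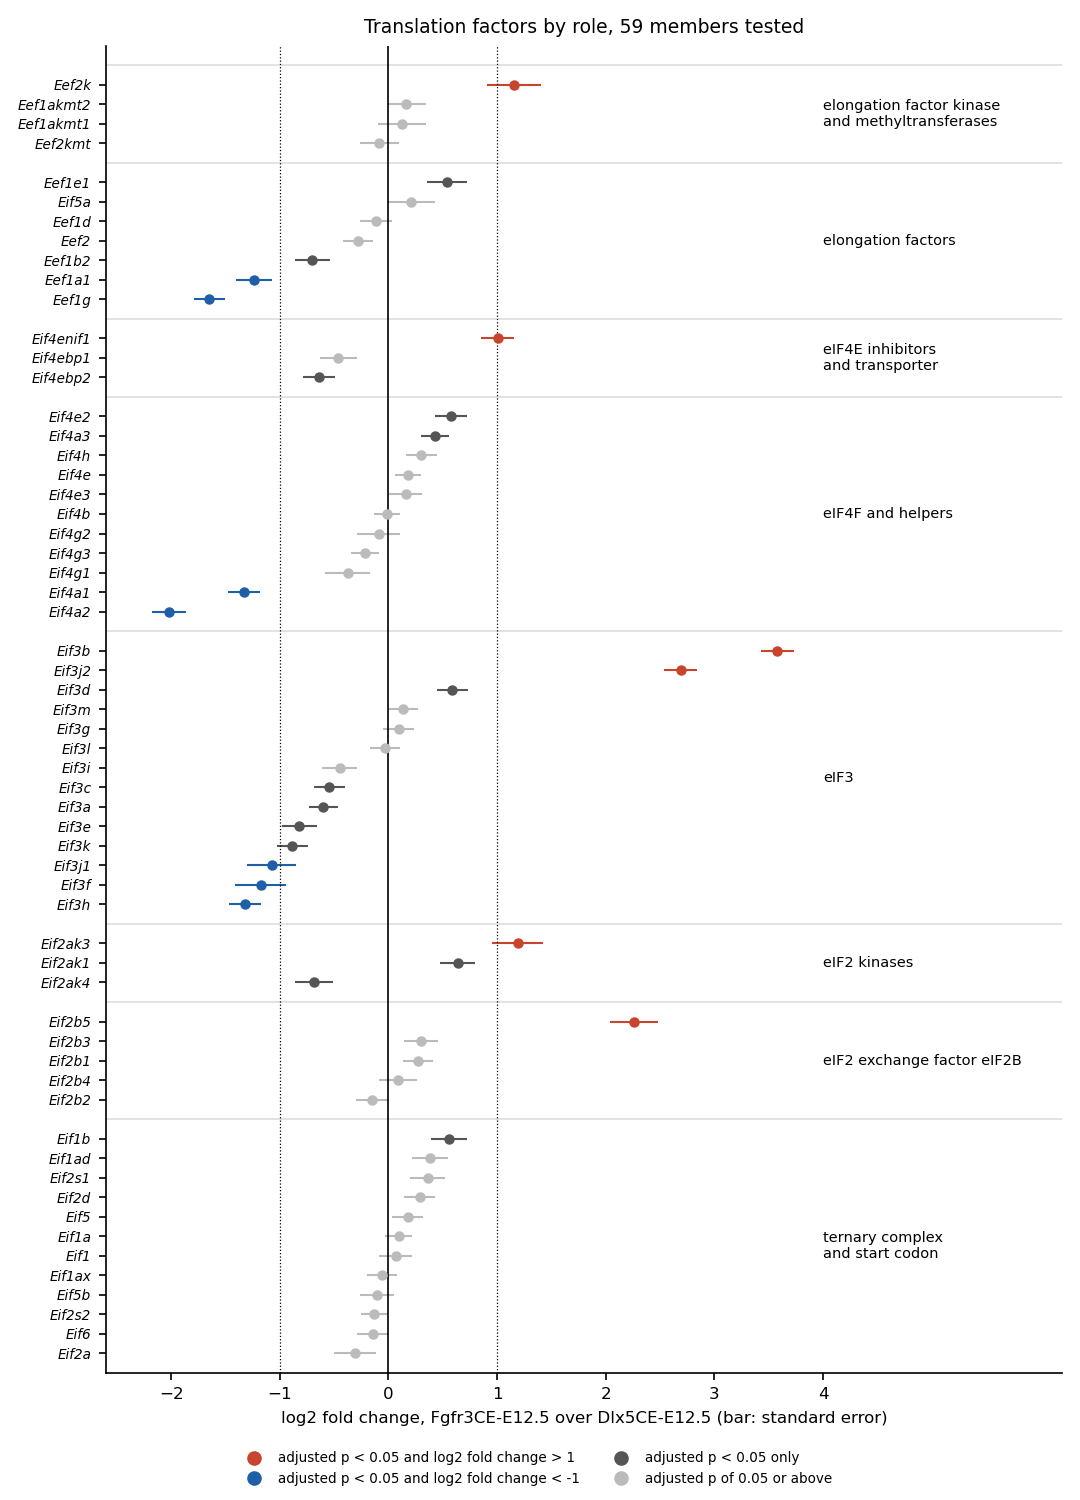
Log2 fold change of each of the 59 members tested, Fgfr3CE-E12.5 (2 libraries) over Dlx5CE-E12.5 (3 libraries), grouped by role, with the standard error as a bar, and dotted lines at -1 and 1. The members of the ternary complex and start codon group all lie between -0.31 and 0.56, whereas the eIF3 subunits run from -1.32 (*Eif3h*) to 3.58 (*Eif3b*).

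The sequences around the annotated start site are given first for the members the results turn on, since a TOP tract starts at the first transcribed base. Whether the annotated start is that base was not tested. Each is 30 bases of the sense strand, 15 before and 15 from the start in RefSeq on GRCm38.p6, with the longest run of C and T that begins with C and comes to within 5 bases of the start in capitals where it has 6 bases or more.
Eef1a1: gctggctccgCCCTCTTCCCgagggtgggg
Eif3f: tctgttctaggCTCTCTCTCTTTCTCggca
Eef2: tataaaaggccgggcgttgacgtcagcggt
Eif4a1: acaaagtaacgtcacgtcgagttgcagagc
Eif4a2: ccgcggaaaccccgtaggagcagggcggcc
Eif2b5: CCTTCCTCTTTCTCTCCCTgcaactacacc
Eif3b: ctagcggcgcgcggtgacttctgggagtcg
The windows lie at chr9:78481710-78481739 (minus strand) for *Eef1a1*, chr7:108934400-108934429 (plus) for *Eif3f*, chr10:81176616-81176645 (plus) for *Eef2*, chr11:69672409-69672438 (minus) for *Eif4a1*, chr16:23107453-23107482 (plus) for *Eif4a2*, chr16:20498802-20498831 (plus) for *Eif2b5* and chr5:140419290-140419319 (plus) for *Eif3b*. The runs of *Eef1a1* and *Eif3f*, both lower in Fgfr3CE-E12.5 cells, began 5 and 4 bases before the start. That of *Eif2b5*, which was higher, reached the window's edge, 15 bases before the start. Among 63 windows of the 48 members that matched the RefSeq table, 17.5% held a run, against 16.3% of 32851 windows of all genes, which is close to it. Runs that begin within 5 bases of the start, counted after seeing the data, were in 9.52% of the members' windows and 8.57% of all windows. A run describes the letters in this window only.

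Some members share long stretches with another gene, and the counts of these depend on where the authors' aligner and counter placed the reads. For each member the annotated transcripts were cut into overlapping windows of 50 bases, and those found on either strand in an annotated transcript of another gene were counted. In this way 18 members, 16 of them tested, had over 10% of their windows shared. Genes whose exons overlap a member at the same place also count, so a shared window need not lie in a copy elsewhere. *Eef1a1*, *Eef1g* and *Eif4a1* have processed pseudogenes, intronless copies of their mRNA. An 80-base stretch of each coding sequence is shown with the same stretch of the copy that shares the most windows, with the base that differs in capitals, to show how few bases separate a read of the gene from a read of the copy.
Eef1a1: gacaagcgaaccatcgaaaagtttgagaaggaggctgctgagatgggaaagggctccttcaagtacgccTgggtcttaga
Gm13456: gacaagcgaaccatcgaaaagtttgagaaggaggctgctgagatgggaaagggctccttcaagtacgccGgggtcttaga
Eef1g: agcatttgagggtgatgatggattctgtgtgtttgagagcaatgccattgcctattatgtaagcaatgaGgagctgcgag
Gm4366: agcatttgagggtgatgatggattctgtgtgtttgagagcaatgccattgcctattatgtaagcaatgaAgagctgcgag
Eif4a1: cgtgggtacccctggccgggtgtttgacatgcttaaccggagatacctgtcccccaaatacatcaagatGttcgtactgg
Eif4a-ps4: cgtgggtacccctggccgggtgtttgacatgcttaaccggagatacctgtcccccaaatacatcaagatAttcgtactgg
These are coding bases 103 to 182 of *Eef1a1*, 177 to 256 of *Eef1g* and 465 to 544 of *Eif4a1* in GENCODE M21, and the copies lie at chr2:40555829-40555908 (plus strand), chr7:116825568-116825647 (minus) and chr1:60704396-60704475 (plus) of GRCm38. Each pair differs at 1 of the 80 bases.

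The ternary complex and start codon factors were the most even group. Of 12 members tested, none was called and only *Eif1b*, a paralogue of the start codon factor eIF1, passed the adjusted p-value. Of all genes tested, 29.5% were called and 48.4% passed the adjusted p-value. *Eif1b* stood at 33.9, 35.1 and 36.4 CPM in Dlx5CE-E12.5 cells and 44.6 and 58.7 CPM in Fgfr3CE-E12.5 cells, with a log2 fold change of 0.56 ± 0.16 (SE, adjusted p = 0.028). *Eif2s1*, the alpha subunit of eIF2 and the target of the eIF2 kinases, stood at 121, 96.9 and 90.2 CPM against 133 and 132 CPM, with a log2 fold change of 0.36 ± 0.16 (adjusted p = 0.10). The *Eif2s1* libraries did not overlap, but the difference did not pass the test, and without Dlx5CE-E12.5 replicate 1, the highest library of that lineage, it was 0.50 (adjusted p = 0.032). The other members of the group had log2 fold changes between -0.31 (*Eif2a*) and 0.38 (*Eif1ad*), and the median of the group was 0.08.

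In eIF2B, the exchange factor that recharges eIF2, *Eif2b5* differed and the other subunits did not pass the test. *Eif2b5* (chr16:20498817-20509323, plus strand), the catalytic epsilon subunit, had 18.7, 14.5 and 23.6 CPM in Dlx5CE-E12.5 cells and 83.9 and 97.7 CPM in Fgfr3CE-E12.5 cells. All Fgfr3CE-E12.5 values lay far above all Dlx5CE-E12.5 values, a 4.79-fold difference with a log2 fold change of 2.26 ± 0.22 (adjusted p = 0.00032). *Eif2b1*, *Eif2b2*, *Eif2b3* and *Eif2b4* had log2 fold changes of 0.27, -0.15, 0.30 and 0.09, with adjusted p-values of 0.15 to 0.71. Per kilobase of exon, the level of *Eif2b5* was 5.57 to 9.10 CPM in Dlx5CE-E12.5 cells, below *Eif2b1*, *Eif2b2* and *Eif2b4* in each library. In Fgfr3CE-E12.5 cells it was 32.3 and 37.6 CPM, above all of them by this length. The order against *Eif2b2* depends on the length used. Exon and coding lengths were 2595 and 2192 bases for *Eif2b5*, and 1885 and 1053 bases for *Eif2b2*. None of the *Eif2b5* windows occurred in another gene, and no exon of another gene lay over its exons. Without Fgfr3CE-E12.5 replicate 3, the library with the most leukocyte marker RNA, its log2 fold change was 2.21.

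All 3 eIF2 kinases among the members passed the adjusted p-value, in different directions, beside 25.0% of all genes tested that were higher and 23.4% that were lower. *Eif2ak3* (PERK, the kinase of endoplasmic reticulum stress) had 7.99, 8.10 and 11.3 CPM in Dlx5CE-E12.5 cells against 21.4 and 20.3 CPM, a log2 fold change of 1.19 ± 0.23 (adjusted p = 0.0057). It was the member that stayed under the filter's CPM in some Dlx5CE-E12.5 libraries. *Eif2ak3* passed the filter only with the Fgfr3CE-E12.5 libraries, where it was higher. *Eif2ak1* (HRI, the heme-regulated kinase) had 99.1, 75.9 and 82.6 CPM against 123 and 144 CPM, a log2 fold change of 0.64 ± 0.16 (adjusted p = 0.015). *Eif2ak4* (GCN2, which senses uncharged tRNA) went the other way, at 23.5, 22.1 and 21.5 CPM against 14.2 and 13.8 CPM, a log2 fold change of -0.68 ± 0.18 (adjusted p = 0.017), and its adjusted p was 0.050 to 0.066, not under the threshold, in 4 of the 5 fits that left out a library, those without Dlx5CE-E12.5 replicates 2 or 3 and those without either Fgfr3CE-E12.5 library. In none of the kinases did the libraries of the lineages overlap, which was also so for 68.9% of all genes tested.

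In eIF3, the scaffold of the small subunit, the members diverged most. Of 14 tested, 2 were called higher and 3 lower, beside 16.4% and 13.1% of all genes tested. By the adjusted p-value alone, 3 were higher and 7 lower, beside 25.0% and 23.4% of all genes tested. *Eif3b* (chr5:140419328-140443360, plus strand), a core subunit that binds RNA, had 20.5, 21.7 and 24.6 CPM in Dlx5CE-E12.5 cells and 243 and 289 CPM in Fgfr3CE-E12.5 cells. The libraries of each lineage lay close together and the lineages were far apart, with an 11.9-fold difference and a log2 fold change of 3.58 ± 0.15 (adjusted p = 3.80e-05). *Eif3b* shared no window with another gene and its exons overlapped no exon of another gene. Leaving out each library in turn gave log2 fold changes of 3.51 to 3.77, and 3.51 without Fgfr3CE-E12.5 replicate 3.

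Levels of subunits were compared per kilobase of exon over 12 subunits, leaving out *Eif3j1* and *Eif3j2*, which share sequence. *Eif3b* was the lowest of the 12 in each Dlx5CE-E12.5 library, at 6.13, 6.49 and 7.35 CPM per kilobase, and the highest in both Fgfr3CE-E12.5 libraries, at 72.6 and 86.4 CPM per kilobase. Relative to the median subunit of the same library, it was at 0.208 to 0.263 in Dlx5CE-E12.5 cells and at 2.98 and 3.44 in Fgfr3CE-E12.5 cells. The other 11 subunits spanned a 4.38-fold to 4.95-fold range in Dlx5CE-E12.5 libraries and a 4.09-fold and 4.55-fold range in Fgfr3CE-E12.5 libraries.

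**Figure D2:**
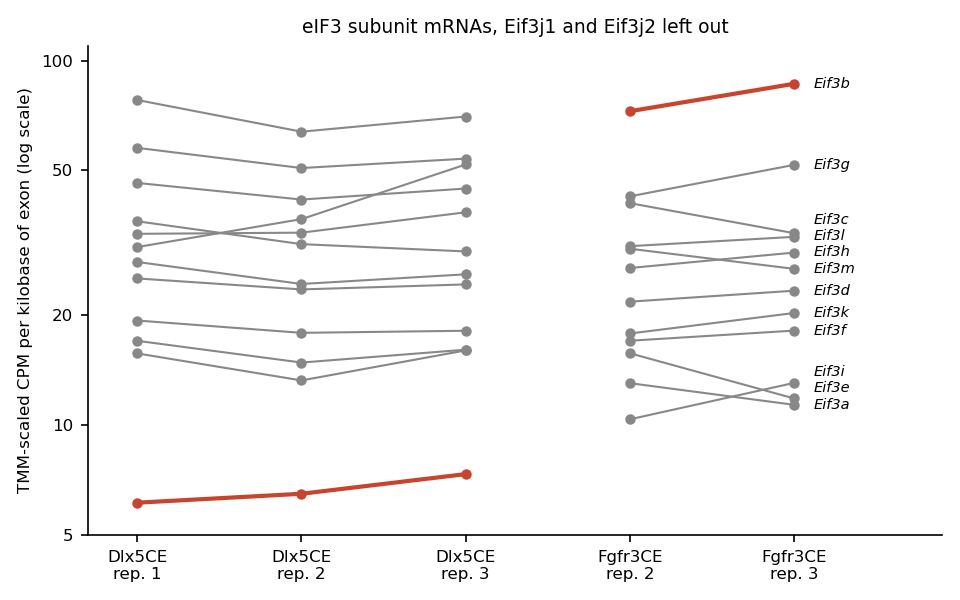
Level of 12 eIF3 subunit mRNAs in each library, as TMM-scaled CPM per kilobase of exon on a log axis, with a line joining the values of a gene within a lineage. *Eif3b* (red) lies below all other subunits in the 3 Dlx5CE-E12.5 libraries and above them in both Fgfr3CE-E12.5 libraries.

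Subunits a, c, e, f, h, k, l and m form the octamer, the structural core of eIF3. Of these 8, a grouping chosen after the values were seen, 6 were lower in Fgfr3CE-E12.5 cells by the adjusted p-value, beside 23.4% of all genes tested. *Eif3h* had 126, 103 and 113 CPM against 43.5 and 48.0 CPM, a log2 fold change of -1.32 ± 0.15 (adjusted p = 0.00058), and 20.3% of its windows occurred in another gene. *Eif3f* had 89.1, 106 and 150 CPM against 49.3 and 52.6 CPM, a log2 fold change of -1.18 ± 0.23 (adjusted p = 0.0060), and it shared no window. The *Eif3f* value rested in part on Dlx5CE-E12.5 replicate 3, the highest library, without which it was -0.95 and no longer past the fold threshold. *Eif3a*, the largest subunit, had 169, 156 and 159 CPM against 114 and 99.3 CPM, a log2 fold change of -0.60 ± 0.13 (adjusted p = 0.0094). *Eif3e* had 170, 158 and 164 CPM against 106 and 79.6 CPM, a log2 fold change of -0.82 ± 0.16 (adjusted p = 0.0057). *Eif3k* and *Eif3c* were at -0.88 and -0.54, whereas *Eif3l* (-0.03) and *Eif3m* (0.13) did not pass the test, and their libraries overlapped. Outside the octamer, *Eif3d*, a cap-binding subunit, was higher at 0.59 ± 0.14 (adjusted p = 0.012). However, 43.3% of its exon bases lay under exons of another gene, counted on either strand, and 37.2% of its windows occurred in another gene. The same bases can enter both values. The strand setting of the counting is not given in the sources used here. *Eif3g* (0.09) and *Eif3i* (-0.45) did not pass the test.

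The copies of subunit j went in opposite directions. *Eif3j1* had 20.3, 18.1 and 25.3 CPM against 10.8 and 9.42 CPM, a log2 fold change of -1.07 ± 0.23 (adjusted p = 0.0077), which lost the fold threshold at -0.93 without Dlx5CE-E12.5 replicate 3 and at -0.92 without Fgfr3CE-E12.5 replicate 3. *Eif3j2* had 13.4, 14.9 and 13.5 CPM against 97.8 and 82.3 CPM, a log2 fold change of 2.69 ± 0.15 (adjusted p = 4.40e-05). Since 91.8% of the *Eif3j2* windows and 50.9% of the *Eif3j1* windows occurred in another gene, most of it in each other, their split is uncertain. Their sum was 33.7, 33.1 and 38.8 CPM against 109 and 91.7 CPM. Per kilobase of exon, *Eif3j1* held 38.2% ± 5.1 (SD, n = 3) of the pair in Dlx5CE-E12.5 cells and 4.38% ± 0.11 (SD, n = 2) in Fgfr3CE-E12.5 cells. The exact two-sided permutation p was 0.2 (adjusted p = 0.48 over 12 shares), the smallest p that 3 libraries against 2 allow. The size of these shares depends on the length used. Exon lengths were 5830 bases for *Eif3j1* and 2379 for *Eif3j2*, and coding lengths were 783 and 789 bases.

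In eIF4F, the complex that binds the cap and unwinds the leader, both helicase mRNAs were lower in Fgfr3CE-E12.5 cells. *Eif4a2* (chr16:23107444-23114136, plus strand), an RNA helicase, had 490, 464 and 463 CPM in Dlx5CE-E12.5 cells and 127 and 106 CPM in Fgfr3CE-E12.5 cells, without overlap. It was 4.05-fold lower, with a log2 fold change of -2.02 ± 0.16 (adjusted p = 0.00014), the lowest among the members. Of its windows 13.6% occurred in another gene and 13.3% of its exon bases lay under exons of other genes, and the same bases can enter both values. *Eif4a1*, its close paralogue, had 1087, 1123 and 1184 CPM against 454 and 446 CPM, a log2 fold change of -1.33 ± 0.15 (adjusted p = 0.00058). *Eif4a3*, the related helicase of the exon junction complex, had 113, 98.3 and 102 CPM against 137 and 144 CPM, a log2 fold change of 0.43 ± 0.13 (adjusted p = 0.029). Per length, *Eif4a1* made up 74.7% ± 1.4 (SD, n = 3) of the sum of *Eif4a1* and *Eif4a2* in Dlx5CE-E12.5 cells and 82.6% ± 1.7 (SD, n = 2) in Fgfr3CE-E12.5 cells, and the groups did not overlap (exact two-sided permutation p = 0.2, adjusted p = 0.48).

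The cap-binding protein and the scaffold did not pass the test. *Eif4e* had 136, 137 and 141 CPM against 161 and 151 CPM, a log2 fold change of 0.18 ± 0.12 (adjusted p = 0.26). *Eif4g1* had 102, 125 and 160 CPM against 95.0 and 104 CPM, a log2 fold change of -0.38 ± 0.20 (adjusted p = 0.17), with overlapping libraries. *Eif4e2*, a cap-binding paralogue that represses translation, was higher at 0.58 ± 0.15 (adjusted p = 0.017), and its share of the *Eif4e* family was 14.7% ± 0.67 (SD, n = 3) against 18.6% ± 2.1 (SD, n = 2), with an exact permutation p = 0.2. *Eif4g2*, *Eif4g3*, *Eif4b*, *Eif4h* and *Eif4e3* had log2 fold changes between -0.22 and 0.30, none past the adjusted p-value.

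Among the proteins that bind eIF4E, the 4E-BP mRNAs were lower in value and the transporter was higher. *Eif4ebp1*, which blocks eIF4E until mTORC1 phosphorylates it, had 83.7, 84.6 and 82.6 CPM against 51.1 and 70.5 CPM, a log2 fold change of -0.46 ± 0.17 that did not pass the test (adjusted p = 0.058). The Fgfr3CE-E12.5 libraries decided this value, since it was -0.65 (adjusted p = 0.015) without replicate 3 and -0.17 (adjusted p = 0.31) without replicate 2. *Eif4ebp2*, its paralogue, had 42.3, 41.1 and 42.9 CPM against 28.6 and 25.3 CPM, a log2 fold change of -0.64 ± 0.15 (adjusted p = 0.010), and without Fgfr3CE-E12.5 replicate 3 the adjusted p was 0.055. *Eif4ebp3* was under 1 CPM in every library and was not tested. *Eif4enif1*, which carries eIF4E into the nucleus and into P-bodies, had 27.1, 22.7 and 23.3 CPM against 49.1 and 49.0 CPM, a log2 fold change of 1.01 ± 0.15 (adjusted p = 0.0019). That value lay at the fold threshold, and it was 0.96 without Dlx5CE-E12.5 replicate 2 and 0.97 without replicate 3.

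Of the 7 elongation factors tested, 2 were called lower and none higher, beside 13.1% and 16.4% of all genes tested. By the adjusted p-value, 3 were lower and 1 higher, beside 23.4% and 25.0% of all genes tested. *Eef1a1*, which delivers aminoacyl-tRNA and had the highest level per kilobase among the members in Dlx5CE-E12.5 cells, had 1823, 1609 and 1742 CPM against 778 and 687 CPM, a log2 fold change of -1.24 ± 0.16 (adjusted p = 0.0012). In Fgfr3CE-E12.5 cells *Eif5a* and *Eif1* stood above it. This order is per kilobase of exon and depends on that length. Exon and coding lengths were 2493 and 1386 bases for *Eef1a1*, and 2377 and 462 bases for *Eif5a*. *Eef1g*, a subunit of the exchange factor eEF1B that recharges eEF1A, had 249, 211 and 228 CPM against 70.6 and 76.1 CPM, a log2 fold change of -1.65 ± 0.14 (adjusted p = 0.00022). *Eef1b2*, another eEF1B subunit, was at -0.70 ± 0.16 (adjusted p = 0.010), and *Eef1d*, the remaining one, at -0.11 ± 0.15 (adjusted p = 0.56). *Eef1e1*, a protein of the tRNA synthetase complex, was higher at 0.54 ± 0.18 (adjusted p = 0.048).

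*Eef2*, the translocase, had 470, 502 and 538 CPM against 422 and 407 CPM, a log2 fold change of -0.28 ± 0.14 that did not pass the test (adjusted p = 0.15), while the libraries did not overlap. *Eef2k*, the kinase that inhibits eEF2, had 14.7, 15.1 and 10.9 CPM against 24.0 and 36.5 CPM, a log2 fold change of 1.16 ± 0.25 (adjusted p = 0.0084). Its value depended on Fgfr3CE-E12.5 replicate 3, without which it was 0.88 and under the fold threshold (adjusted p = 0.044). *Eif5a*, which helps the ribosome through proline stretches, had 879, 719 and 749 CPM against 710 and 1098 CPM, a log2 fold change of 0.21 ± 0.22 (adjusted p = 0.47). The Fgfr3CE-E12.5 libraries lay on both sides of the Dlx5CE-E12.5 libraries, and the *Eif5a* value was -0.08 without replicate 3 and 0.56 (adjusted p = 0.042) without replicate 2. The methyltransferases *Eef1akmt1*, *Eef1akmt2* and *Eef2kmt* had log2 fold changes of -0.08 to 0.17, with adjusted p-values of 0.48 to 0.73. Of the members not tested, *Eif5a2* had 4.99, 4.38 and 5.37 CPM against 12.3 and 6.42 CPM, and *Eef1akmt3*, *Eef1akmt4* and *Eif4e1b* stayed under 9 CPM in every library.

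**Figure D3:**
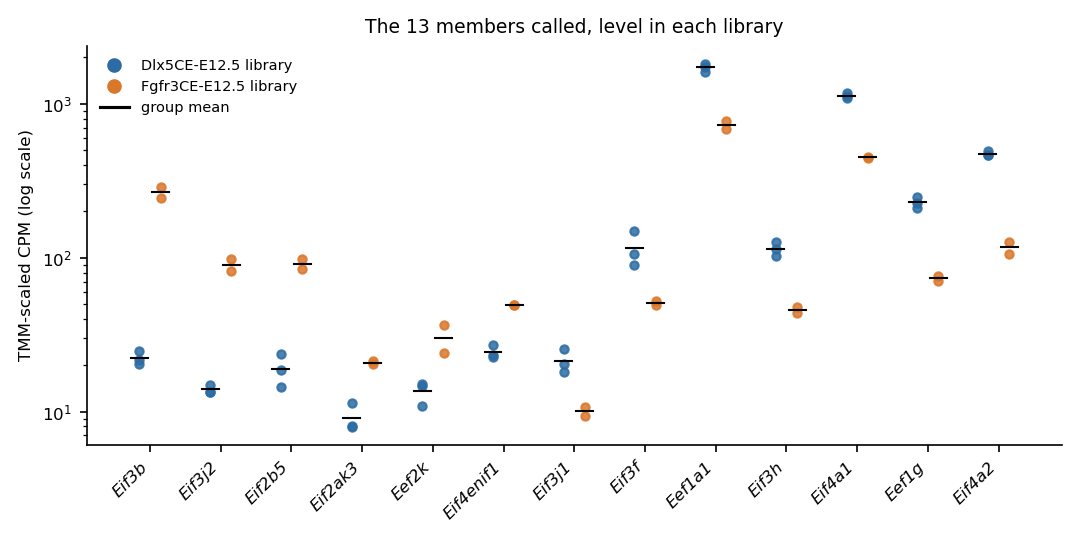
TMM-scaled CPM (log axis) of the 13 members past both thresholds, with a point for each Dlx5CE-E12.5 (blue) and Fgfr3CE-E12.5 (orange) library and a black line at each group mean. The groups do not overlap for any of the 13, which largely follows from choosing them by both thresholds, beside 68.9% of all genes tested. *Eif3b* shows the widest gap, from 20.5 to 24.6 CPM up to 243 and 289 CPM.

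The calls in the lower direction lay mostly among members that share sequence. Of the 16 tested members with over 10% shared windows, 6 were called lower and 1 higher, and of the 43 with at most 10%, 1 was called lower (*Eif3f*) and 5 higher. Over all genes tested, 295 of 1792 genes with over 10% shared windows and 1020 of 8291 genes with at most 10% were called lower. In the higher direction 258 of 1792 and 1394 of 8291 were called. The part of read length in these calls was not tested. By the adjusted p-value alone, 6 of 16 and 8 of 43 members were lower, beside 481 of 1792 and 1878 of 8291 of all genes tested.

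**Figure D4:**
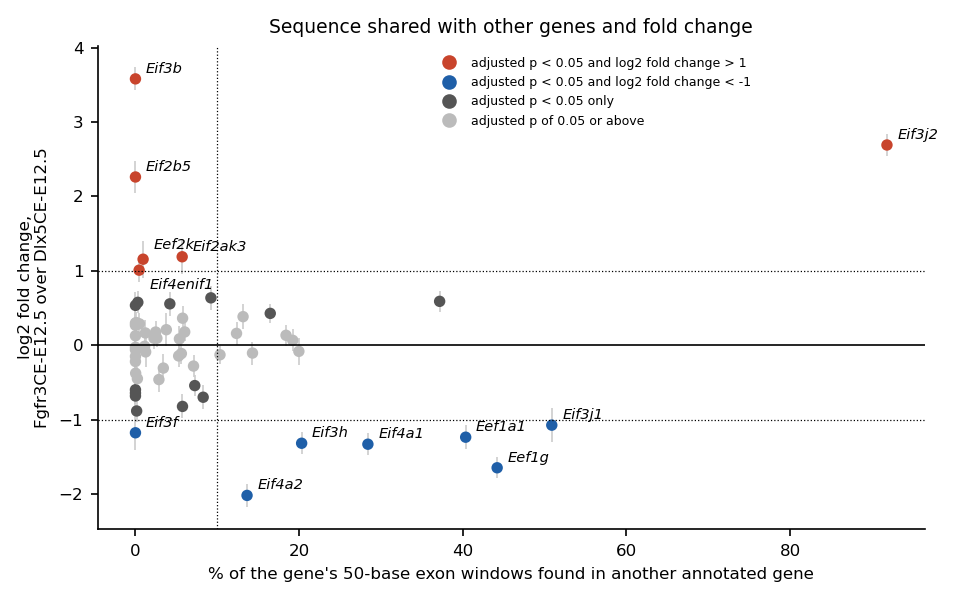
Percent of each tested member's 50-base exon windows found in another annotated gene (x axis) against its log2 fold change, Fgfr3CE-E12.5 over Dlx5CE-E12.5, with the standard error as a bar, and dotted lines at 10% and at -1 and 1. *Eif3b* and *Eif2b5* stand at 0% on the left, and 6 of the 7 members called lower stand right of 10%.

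Counts on the annotated pseudogene copies differed between the lineages, in both directions. Of the counts of *Eef1a1* and 14 copies together, 28.8% to 32.5% were on the copies in Dlx5CE-E12.5 libraries and 0.526% and 0.530% in Fgfr3CE-E12.5 libraries. For *Eif1* and 16 copies, the share was 21.8% to 24.2% against 1.82% and 2.24%. For *Eif4a1* it was the reverse, 15.8% to 18.0% against 37.9% and 36.9%, and likewise for *Eif2s2*, 9.12% to 10.3% against 23.8% and 25.8%. For *Eef1g* the shares were 35.6% to 39.4% against 40.2% and 42.7%. When the counts of the copies were added to those of their gene, an alternative added after seeing the data, *Eef1a1* was at -1.75, *Eef1g* at -1.56 and *Eif4a1* at -0.92, so *Eif4a1* no longer passed the fold threshold.

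**Figure D5:**
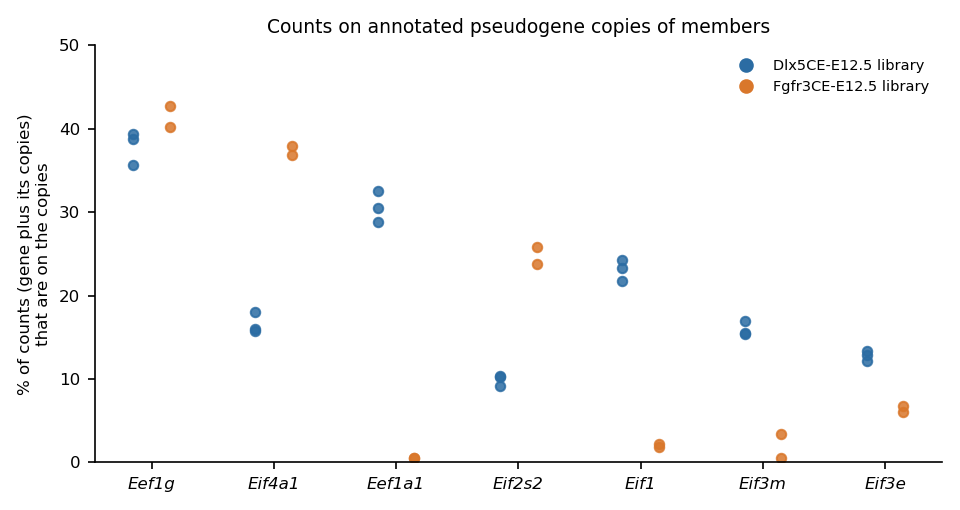
Share of counts on annotated pseudogene copies, as a percent of the counts on the gene and its copies together, with a point for each Dlx5CE-E12.5 (blue) and Fgfr3CE-E12.5 (orange) library, for the 7 members whose share reached 10% in a library. The copies of *Eef1a1* and *Eif1* held over 20% in each Dlx5CE-E12.5 library and under 3% in each Fgfr3CE-E12.5 library, whereas those of *Eif4a1* and *Eif2s2* held more in Fgfr3CE-E12.5 libraries.

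The 9 members of the TOP list (*Eef1a1*, *Eef1b2*, *Eef1d*, *Eef1g*, *Eef2*, *Eif3e*, *Eif3f*, *Eif3h* and *Eif4b*) had a median log2 fold change of -0.82, and 4 were called lower and none higher, beside 13.1% and 16.4% of all genes. By the adjusted p-value 6 were lower, beside 23.4% of all genes, while *Eef1d*, *Eef2* and *Eif4b* (-0.01 ± 0.12, adjusted p = 0.93) did not pass the test. The other 50 members tested had a median of 0.11, with 6 called higher and 3 lower. The ribosomal protein mRNAs, which are the best known TOP mRNAs, had a median of -1.57, with 63 of 77 called lower and none higher, beside the same 13.1% and 16.4%. Shared windows and counts on copies are not given here for the ribosomal protein genes, and their part in these values was not tested. Of the 4 TOP list members called lower, *Eef1a1*, *Eef1g* and *Eif3h* also had over 10% shared windows. Start windows were at hand for 5 of the 9, and the run of C and T was found in 2 of these, *Eef1a1* and *Eif3f*. The annotated starts were not checked against the first transcribed base, so these windows do not show which members carry a TOP tract.

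Other genes of translation control were read from lists written for this comparison, whose counts stand beside 16.4% of all genes called higher and 13.1% called lower. Of 18 tested partners, 2 were called higher and 3 lower. *Gspt1*, the release factor eRF3, had 17.5, 16.8 and 17.3 CPM against 97.3 and 95.1 CPM, a log2 fold change of 2.48 ± 0.13 (adjusted p = 4.28e-05). *Larp1*, which binds TOP mRNAs, was higher at 1.57 ± 0.15. *Pabpc1*, the poly(A)-binding protein that joins the tail to eIF4G, had 825, 600 and 628 CPM against 196 and 170 CPM, a log2 fold change of -1.90 ± 0.20 (adjusted p = 0.00046). Its partner *Paip1* was at -2.44 ± 0.20 and *Impact*, an inhibitor of GCN2, at -1.86 ± 0.27.

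Of 15 enzymes that modify the factors, 2 were called higher and 2 lower. *Ppp1cc*, a catalytic subunit of protein phosphatase 1, which takes the phosphate off eIF2, was at 2.96 ± 0.14, and *Mknk2*, which phosphorylates eIF4E, at 1.76 ± 0.19. *Csnk2a1*, a catalytic subunit of casein kinase 2, was lower, at 208, 210 and 184 CPM against 28.0 and 22.1 CPM, and *Dohh*, which completes the hypusine of eIF5A, was at -1.01 ± 0.31. Of 25 mTORC1 genes, 2 were called higher and 6 lower. *Rragc*, a GTPase that recruits mTORC1 to lysosomes, was at 3.38 ± 0.18 and *Rps6ka1* at 3.05 ± 0.30. The product of *Rps6ka1* is RSK1, not the S6 kinase encoded by *Rps6kb1*. *Rps6kb1* was at -0.61 ± 0.14 (adjusted p = 0.0095). The largest negative values were those of *Deptor* (-3.72 ± 0.28), *Ddit4* (-2.13 ± 0.29) and *Sesn3* (-1.57 ± 0.24), which inhibit mTORC1. *Rraga*, a GTPase that activates mTORC1, was also called lower (-1.25 ± 0.13). *Castor1*, an arginine sensor that inhibits mTORC1, was higher by the adjusted p-value (0.93 ± 0.20). These 2 genes and *Rps6kb1* were named after their values were seen.

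Of 20 stress response targets, genes raised by ATF4 when eIF2 is phosphorylated, 2 were called higher and 6 lower. By the adjusted p-value 7 were higher and 9 lower, beside 25.0% and 23.4% of all genes tested. *Psat1* (1.55 ± 0.29), an enzyme of serine synthesis, and *Vldlr* (1.49 ± 0.26), a lipoprotein receptor, were the higher ones. *Atf5* (-3.01 ± 0.25), a transcription factor, *Slc7a11* (-2.50 ± 0.28), a cystine transporter, and *Ddit4* were the furthest below. None of the 22 tRNA synthetase genes was called. By the adjusted p-value (edgeR's quasi-likelihood test) 6 were higher and 2 lower, beside the same 25.0% and 23.4%. The medians of the lists were -0.07 for the partners, -0.05 for the modifying enzymes, -0.22 for mTORC1, -0.31 for the stress targets and 0.25 for the synthetases, beside 0.01 for all genes tested. With library size alone, which moved all genes up, the medians of the partners and the modifying enzymes became 0.14 and 0.16.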

How the data were processed

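Bulk RNA-seq counts of 3 Dlx5CE-E12.5 and 2 Fgfr3CE-E12.5 libraries were used, and groups and replicate numbers came from the sample labels. The authors amplified cDNA with SMART-Seq v4, prepared libraries with Nextera XT, aligned reads to mm10 and deposited unnormalized counts per gene. The submitters' processing notes name TopHat2 2.0.13, Bowtie2 2.2.1 and HTSeq. The deposited size-factor-normalized and rlog values were not used here. How reads on repeated sequence were counted is not given in the sources used here.

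Gene types, coordinates and exon lengths came from GENCODE M21 (GRCm38), and start sites from RefSeq. Protein-coding genes and 5 reporters that reached 10 CPM in 2 or more libraries were fitted in edgeR 4.0.16 (R 4.3.3) with TMM and the quasi-likelihood test, and p-values were adjusted by Benjamini-Hochberg over 10088 genes. The fit was tested on simulated counts. No libraries agreed within sampling noise. The study's methods call the libraries biological replicates, each from pooled littermates. At these depths 3 counts equal 0.0516 to 0.136 CPM, for counting error only, since reads carried no molecular identifiers. Shares were compared by exact permutation tests with SciPy 1.17.1. Copies were pseudogenes sharing at least 1% of a gene's 50-base windows. The alternatives were other scalings, tests and filters, GC and length trends removed, a replicate block, fits without single libraries, and genes with shared sequence removed. Members and lists were chosen with earlier results of these data known. Values are given for the members past both thresholds, for the 5 largest changes in each direction past the adjusted p-value, for factors listed by role, and for the 3 largest changes in each direction of other lists.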

Additional observations from a re-analysis of the deposited data

How the results depend on the processing

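The counts of members called were 6 higher and 7 lower in Fgfr3CE-E12.5 cells, and the same genes were called with DESeq2's size factors, edgeR's exact test, DESeq2's Wald test, no filter on low counts and all features. With library size as the only scaling, 19 members were higher by the adjusted p-value and the median log2 fold change of the members was 0.194, with the median of all genes at 0.219. In the same way the list medians became 0.160 for the modifying enzymes, -0.011 for mTORC1, -1.36 for ribosomal proteins, -0.10 for the stress targets, 0.456 for the synthetases and 0.136 for the partners. Without genes sharing over 10% of windows, which leaves 43 members, 1 was called lower and 8 were lower by the adjusted p-value. Leaving out each library in turn gave 5 to 6 called higher, 5 to 7 called lower, 6 to 15 higher and 12 to 13 lower by the adjusted p-value, and medians of -0.03 to 0.11, and the lowest count higher, 6, was without Dlx5CE-E12.5 replicate 2 (7 without replicate 3). Eif5a reversed to -0.0797 without Fgfr3CE-E12.5 replicate 3 and passed the adjusted p-value, at 0.56, without replicate 2. Of 384 values of named members under the alternatives, 369 kept their direction and their call by both thresholds, 14 lost the call and 1 reversed. Among the 369, the adjusted p-value alone crossed 0.05 in 18, of which 7 (Eif2ak4 and Eif4ebp2) lost it and 11 (Eif2s1, Eif4e, Eif4ebp1, Eef2 and Eif5a) passed it. The 14 were those of Eif3f, Eif3j1, Eif4enif1, Eif4a1 and Eef2k, whose log2 fold changes ranged from -1.33 to -0.95, -1.18 to -0.86, 0.79 to 1.22, -1.54 to -0.92 and 0.88 to 1.53, and the cause was not tested.

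With the replicate number as a block, all 13 calls were kept and 10 members were higher and 12 lower by the adjusted p-value. The labels share only the numbers 2 and 3, and deviations of same-numbered libraries correlated at 0.13 and -0.05 across genes. With only 2 Fgfr3CE-E12.5 libraries their deviations mirror each other, so these values cannot settle whether the numbers are pairs. The numbers were not taken as pairs. Precision is limited by the number of libraries, 3 and 2.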
